A study of Mus musculus with 4 samples.

Results

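The genes described here are the calcium entry and release channels, the calcineurin subunits and the NFAT transcription factors that carry calcium signals to the nucleus, 10 genes of the 53801 in the count table. They were chosen by symbol as the partners of Nfatc1 in this pathway: Orai1 and Stim1, Itpr1 and Itpr2, Ppp3ca, Ppp3cb, Ppp3r1 and Rcan1, and Nfatc2 and Nfatc3. All 10 were found, each under a single gene ID, and all 10 were among the 17462 genes with enough counts to be tested. Osteoclast precursor cells, the myeloid cells from which bone-resorbing osteoclasts form, were studied, from mice of strain C57BL/6 with wild type genotype. Cells of 2 mice, numbered precursor cells 1 and 2, were each given DKK1 at 200 ng/ml or PBS for 3 h, which gave 2 DKK1 libraries and 2 PBS libraries. DKK1 is a secreted inhibitor of Wnt signalling and PBS is phosphate-buffered saline. The labels do not say how the precursor cells were obtained or cultured. Each preparation was sequenced once per treatment, so the study has 2 pairs and no second preparation of either mouse.

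In this pathway, receptors that couple to ITAM adaptors activate phospholipase C gamma, and the inositol trisphosphate it makes opens IP3 receptors in the endoplasmic reticulum. Emptying of that store is sensed by STIM1, which opens ORAI1 channels in the plasma membrane. The calcium that enters binds calmodulin and activates calcineurin, a phosphatase that removes phosphates from NFAT proteins so that they move into the nucleus. In osteoclast precursors stimulated with RANKL, calcium oscillations and calcineurin drive the induction of Nfatc1, the transcription factor of osteoclast differentiation, and NFATc2 is recruited early to the Nfatc1 promoter. Most of this regulation acts on proteins, which RNA levels do not show.

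The members spanned a range of levels. On the authors' FPKM scale, which divides by gene length and library size, Ppp3r1 was highest, with 32.9 and 26.8 FPKM in DKK1-treated precursor cells 1 and 2 and 33.2 and 27.3 FPKM with PBS. Its lowest library lay above every library of every other member. Rcan1 followed with a median of 15.6 FPKM and a range of 9.59 to 21.9, which overlapped the range of Orai1, 11.8 to 18.7 FPKM around a median of 13.7. Ppp3ca came next, at 7.26 to 8.70 FPKM, below all libraries of the first 3 and just above Nfatc3, at 5.34 to 7.12 FPKM. The ranges of Nfatc3, Nfatc2 (3.84 to 6.03 FPKM) and Ppp3cb (3.44 to 5.52 FPKM) overlapped. The lowest levels were those of Stim1 (2.74 to 3.79 FPKM), Itpr1 (2.23 to 4.19 FPKM) and Itpr2 (2.28 to 2.69 FPKM). Of these, the Itpr1 range overlapped both of the others, while those of Stim1 and Itpr2 did not overlap.

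**Figure D1:**
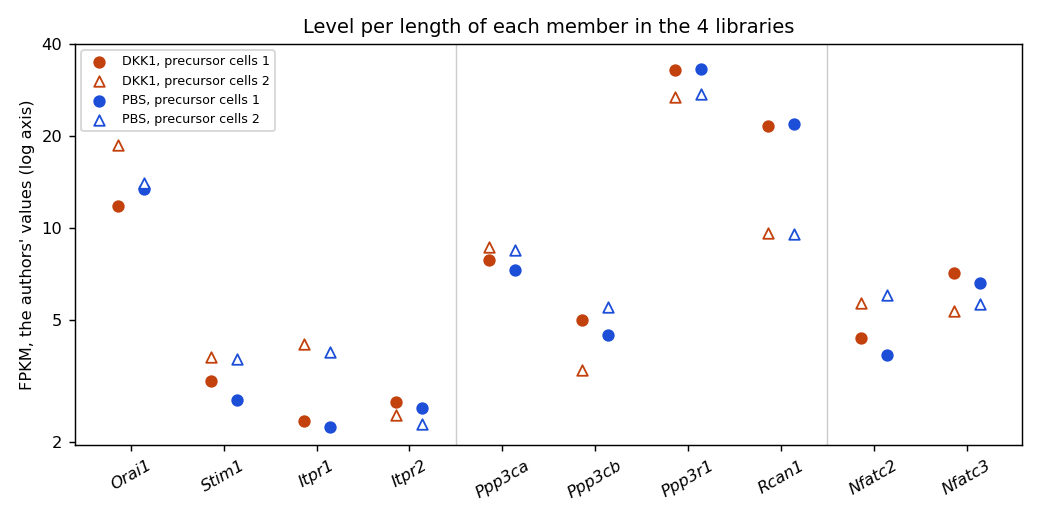
The authors' FPKM (log axis) of each member in the 4 libraries, DKK1 in orange and PBS in blue, precursor cells 1 as filled circles and 2 as open triangles. Ppp3r1 lies highest, at 26.8 to 33.2 FPKM, and Rcan1 falls into a higher pair from precursor cells 1 and a lower pair from precursor cells 2.

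The libraries held 53537927 and 46011873 counts with DKK1 (precursor cells 1 and 2) and 53235399 and 41163663 counts with PBS, and the members had between 1096 and 6328 counts each. All 12 markers of monocytes, macrophages and osteoclast precursors were found in all 4 libraries, among them the M-CSF receptor gene Csf1r at 1969 to 2593 CPM (each count over the TMM-scaled library size) and the RANK gene Tnfrsf11a at 197 to 204 CPM. In such bulk RNA, fewer cells of a type and less RNA per cell cannot be told apart.

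The first comparison asked which genes changed when the precursor cells were exposed to DKK1. None of the 10 members passed edgeR's quasi-likelihood test, which had precursor cells as a term and a Benjamini-Hochberg adjusted p under 0.05 as its threshold (0 of 10, adjusted p from 0.964 to 0.998). Across all tested genes 9 of 17462 passed, or 0.0515%, 7 higher (0.0401%) and 2 lower (0.0115%), so a count of 0 among 10 genes is near the background share. The p-values and confidence intervals rest on 2 mice. Their error is the spread that the model leaves between the pairs, moderated by the spread of other genes. At an unadjusted p under 0.05, 0 members and 4.47% of all tested genes were found, and DESeq2 and limma-voom also called 0 members. The fitted log2 changes ran from -0.25 (Ppp3cb) to 0.11 (Stim1), with a median of 0.06 over the members against -0.0015 over all tested genes. For the 8 members other than Ppp3cb and Orai1, every 95% confidence interval lay between -0.22 and 0.34 on the log2 scale, so a change of more than 1.27-fold in either direction lies outside them. The DKK1 libraries lay wholly on one side of the PBS libraries for 1 of 10 members, Itpr2, against 16.2% of all tested genes.

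**Figure D2:**
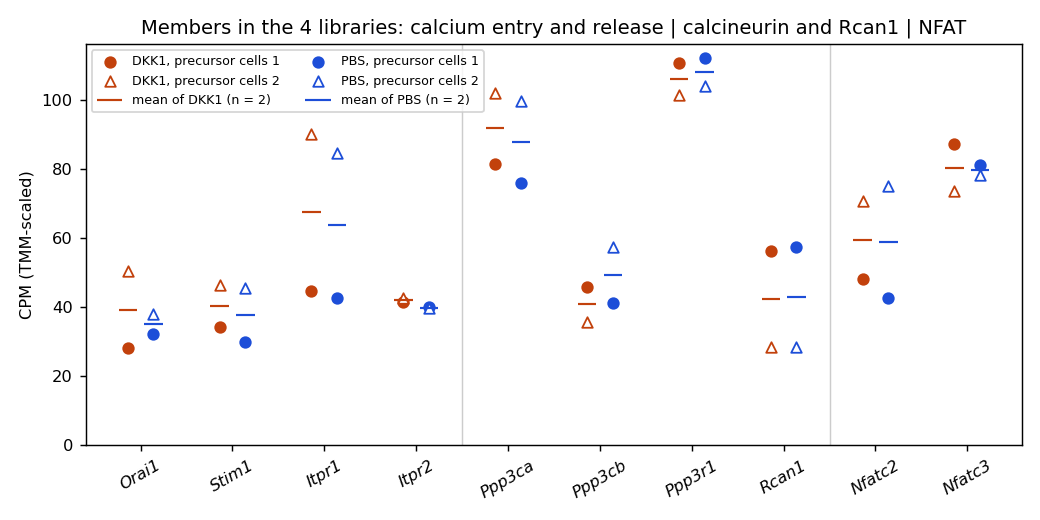
TMM-scaled CPM of each member in the 4 libraries, DKK1 left in orange and PBS right in blue, with a bar for the mean of the 2 libraries. Means of the treatments lie farthest apart in proportion for Ppp3cb (40.8 with DKK1 and 49.3 with PBS) and Orai1 (39.3 with DKK1 and 35.2 with PBS) and close together for Rcan1 (42.3 with DKK1 and 42.9 with PBS), while precursor cells 1 and 2 lie far apart for Itpr1, Rcan1 and Nfatc2.

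Orai1 encodes a pore subunit of the calcium release-activated channel, which carries store-operated entry (ENSMUSG00000049686, chromosome 5, 123015074 to 123030456 on GRCm38). Its relative Orai2, not a member, was at 113 to 144 CPM in the 4 libraries, on a scale not divided by gene length. Orai1 had 28.2 and 50.3 CPM with DKK1 in precursor cells 1 and 2, against 32.3 and 38.0 CPM with PBS. The highest and the lowest of the 4 libraries were thus both DKK1 libraries, and the groups overlapped. Its log2 difference within the pair was -0.19 in precursor cells 1 (95% counting interval -0.29 to -0.10) and 0.40 in precursor cells 2 (0.31 to 0.50). These intervals cover the sampling of counts only and compare 1 library with 1 library. The fit of both pairs gave a log2 change of 0.11 with a 95% confidence interval of -0.27 to 0.49 (edgeR adjusted p = 0.973). Stim1, the sensor of calcium in the endoplasmic reticulum (ENSMUSG00000030987, chromosome 7, 102267806 to 102437319), had 34.3 and 46.3 CPM with DKK1, against 29.8 and 45.6 CPM with PBS. The DKK1 library was above its PBS partner in each pair, by 0.20 and 0.02 on the log2 scale, but the groups overlapped because precursor cells 2 were higher in both treatments (fitted log2 0.11, 95% CI -0.12 to 0.34, edgeR adjusted p = 0.966).

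Release from the store runs through the IP3 receptors. Itpr1 (ENSMUSG00000030102, chromosome 6, 108213096 to 108551109) had 44.8 and 90.1 CPM with DKK1 in precursor cells 1 and 2, against 42.7 and 84.7 CPM with PBS. Itpr2 (ENSMUSG00000030287, chromosome 6, 146108299 to 146502223) had 41.6 and 42.7 CPM with DKK1, against 39.995 and 39.8 CPM with PBS. Both receptors were slightly higher with DKK1 in both pairs. The within-pair log2 differences were 0.07 and 0.09 for Itpr1 and 0.06 and 0.10 for Itpr2, and the fitted log2 changes were 0.08 for each (95% CI -0.10 to 0.26 for Itpr1 and -0.13 to 0.29 for Itpr2; edgeR adjusted p = 0.970 for each). Neither difference passed the test.

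Calcineurin is a pair of a catalytic A subunit, encoded by Ppp3ca, Ppp3cb or Ppp3cc, and a calcium-binding B subunit, encoded by Ppp3r1 in most tissues. Ppp3ca (ENSMUSG00000028161, chromosome 3, 136670124 to 136937727) had 81.5 and 102 CPM with DKK1 in precursor cells 1 and 2, against 75.8 and 99.6 CPM with PBS, a fitted log2 change of 0.07 (95% CI -0.10 to 0.24, edgeR adjusted p = 0.970). Ppp3cb (ENSMUSG00000021816, chromosome 14, 20499364 to 20546573) had 45.9 and 35.7 CPM with DKK1, against 41.1 and 57.5 CPM with PBS. Its pairs went opposite ways, with a log2 difference of 0.16 in precursor cells 1 (95% counting interval 0.08 to 0.24) and -0.69 in precursor cells 2 (-0.78 to -0.59). In counts, the second pair was 1553 with DKK1 against 2222 with PBS. The error of the fit draws on this disagreement and on the spread of other genes. The fitted log2 change was -0.25, with the widest interval of the members, -0.73 to 0.23 (edgeR adjusted p = 0.964). Ppp3r1 (ENSMUSG00000033953, chromosome 11, 17159263 to 17200375) had 111 and 102 CPM with DKK1, against 112 and 104 CPM with PBS, and a log2 change of -0.03 with the narrowest interval, -0.18 to 0.13 (edgeR adjusted p = 0.987). Exons of Ppp3r1 overlap those of Wdr92 on the same strand, and Ppp3r1 held 89.5% of the counts of both. Summed with Wdr92, its log2 change was -0.0045 (edgeR adjusted p = 0.998).

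**Figure D3:**
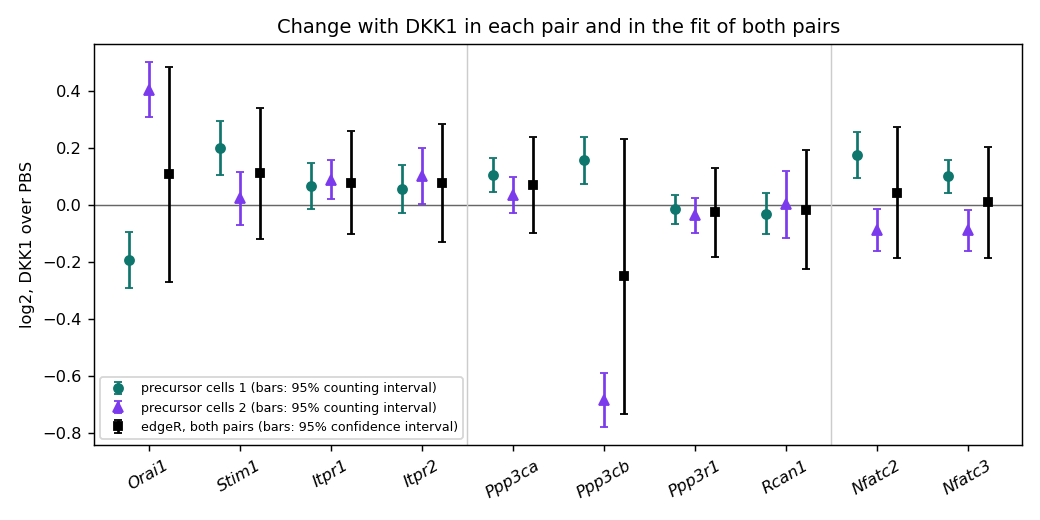
Log2 of DKK1 over PBS for each member in precursor cells 1 (circles), in precursor cells 2 (triangles) and in the edgeR fit of both pairs (squares); bars are 95% counting intervals for the pairs and 95% confidence intervals for the fit. Every interval of the fit includes 0, and the pairs lie farthest apart for Ppp3cb (0.16 and -0.69) and Orai1 (-0.19 and 0.40).

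Across the 10 members, the differences in the 2 pairs had the same sign for 5 and opposite signs for 5, against the same sign in 51.7% of all tested genes. For 4 members, Orai1, Ppp3cb, Nfatc2 and Nfatc3, the signs were opposite and the counting interval of each pair excluded 0, as for 10.2% of all tested genes and 12.8% of the 3128 tested genes with a mean CPM in the members' range. The gap between the pairs was 0.84 on the log2 scale for Ppp3cb and 0.60 for Orai1, and between 0.02 and 0.26 for the other 8. Among those 3128 genes, the median gap was 0.12, and gaps as large as those of Ppp3cb and Orai1 were found in 1.98% and 4.16% of them. In the authors' deposited tables, which compare 1 library with 1 library, Ppp3cb had a log2 ratio of -0.67 (FDR 9.2e-16) and Orai1 of 0.41 (FDR 1.48e-05) in precursor cells 2. These were the 2 members under an FDR of 0.05 in that deposited table by the authors, where 16.7% of the listed genes are, and 0 members were under it in the authors' deposited table for precursor cells 1, where 19% are. The authors' deposited tables call none of the members (0.987% and 0.921% of listed genes in precursor cells 2 and 1), and every gene they do call has an absolute log2 ratio of at least 1.

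Rcan1 encodes an inhibitor that binds calcineurin and is itself induced through NFAT, so its RNA is widely used as a readout of calcineurin activity. It lies on chromosome 16 (ENSMUSG00000022951, 92391953 to 92470867) and has an upstream and an internal start site, the second of which is the calcineurin-responsive one. The 300 bases around each are shown because the counts, which are per gene, cannot tell these transcripts apart. They run from 250 bases before to 50 bases after the start, on the minus strand (RefSeq, GRCm38.p6), and capitals mark the core letters bound by NFAT, GGAAA or its reverse complement TTTCC.
Rcan1 internal start, chr16:92400029-92400328: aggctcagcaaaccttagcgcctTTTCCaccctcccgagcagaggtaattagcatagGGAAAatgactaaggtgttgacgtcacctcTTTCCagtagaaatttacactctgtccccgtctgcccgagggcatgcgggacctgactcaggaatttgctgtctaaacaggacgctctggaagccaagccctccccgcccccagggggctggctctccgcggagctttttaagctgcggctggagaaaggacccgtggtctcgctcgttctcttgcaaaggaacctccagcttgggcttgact
Rcan1 upstream start, chr16:92466120-92466419: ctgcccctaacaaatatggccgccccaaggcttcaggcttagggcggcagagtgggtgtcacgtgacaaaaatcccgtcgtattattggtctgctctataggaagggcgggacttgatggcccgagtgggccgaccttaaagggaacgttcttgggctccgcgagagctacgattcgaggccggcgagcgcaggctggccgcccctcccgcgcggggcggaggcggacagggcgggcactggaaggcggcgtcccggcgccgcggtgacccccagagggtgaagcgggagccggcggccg
The internal window holds 3 matches, 227, 193 and 163 bases before the start, and also 1 match to the AP-1 letters TGACTCA or TGAGTCA, 110 bases before it, which overlaps none of the NFAT matches. The upstream window holds 0 matches to either. Of 32851 such windows in the table, 61.3% hold at least 1 NFAT core and 9.42% at least 3, and 5.2% hold the AP-1 letters. These matches describe the sequence and are not binding sites.

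Rcan1 had 56.3 and 28.4 CPM with DKK1 in precursor cells 1 and 2, against 57.5 and 28.3 CPM with PBS. The treatments were nearly level within each pair, at log2 differences of -0.03 and 0.0017, while the preparations stood apart in both treatments. The fitted log2 change with DKK1 was -0.02 (95% CI -0.22 to 0.19, edgeR adjusted p = 0.995).

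Of the NFAT factors, Nfatc2 (ENSMUSG00000027544, chromosome 2, 168476410 to 168601657) also has 2 start sites in the RefSeq table, whose windows are shown in the same way on the minus strand.
Nfatc2 upstream start, chr2:168601608-168601907: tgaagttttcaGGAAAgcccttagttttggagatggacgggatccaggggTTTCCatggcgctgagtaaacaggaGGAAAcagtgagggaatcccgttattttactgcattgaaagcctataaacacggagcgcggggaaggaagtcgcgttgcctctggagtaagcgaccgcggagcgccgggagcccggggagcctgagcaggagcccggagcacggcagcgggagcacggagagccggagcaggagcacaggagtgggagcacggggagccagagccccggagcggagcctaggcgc
Nfatc2 downstream start, chr2:168590316-168590615: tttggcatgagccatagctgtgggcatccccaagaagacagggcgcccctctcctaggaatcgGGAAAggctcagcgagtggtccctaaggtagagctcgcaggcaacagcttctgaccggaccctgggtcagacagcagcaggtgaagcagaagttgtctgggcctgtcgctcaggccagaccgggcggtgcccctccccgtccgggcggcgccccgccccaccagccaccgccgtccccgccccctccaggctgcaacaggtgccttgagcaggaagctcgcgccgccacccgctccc
The upstream window holds 3 NFAT cores, 239, 200 and 175 bases before the start, and the downstream window holds 1, 187 bases before it. Of the other members' windows, that of Ppp3cb holds 4 cores (2.65% of all windows hold at least 4), those of Nfatc3 hold 1 and 0, and those of Itpr2, Orai1, Ppp3r1 and Stim1 hold 0. Nfatc2 had 48.1 and 70.8 CPM with DKK1 in precursor cells 1 and 2, against 42.6 and 75.2 CPM with PBS. DKK1 was above PBS in precursor cells 1 (log2 0.18, 95% counting interval 0.10 to 0.26) and below it in precursor cells 2 (log2 -0.09, -0.16 to -0.01), with a fitted log2 change of 0.04 (95% CI -0.19 to 0.27, edgeR adjusted p = 0.984). Nfatc3, a family member that is also widely expressed in immune cells (ENSMUSG00000031902, chromosome 8, 106058840 to 106130537), had 87.1 and 73.6 CPM with DKK1, against 81.2 and 78.2 CPM with PBS. It showed the same opposition on a smaller scale, with log2 differences of 0.10 and -0.09 and a fitted change of 0.01 (95% CI -0.19 to 0.20, edgeR adjusted p = 0.998). Nfatc1, the partner not counted among the members, had 40.2 and 50.1 CPM with DKK1, against 40.7 and 50.8 CPM with PBS (log2 -0.02, edgeR adjusted p = 0.995).

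The other genes of the pathway were read from 7 lists holding 100 different symbols, of which 89 were tested. With DKK1, 1 of 89 passed edgeR's test, against 0.0515% of all tested genes, and it was higher: Nfam1, an ITAM-bearing receptor upstream of calcium release, with 21187 and 12942 counts with DKK1 against 9458 and 5095 with PBS (log2 1.17, 95% CI 1.04 to 1.30, edgeR adjusted p = 0.00535). The other 13 tested genes of its list did not pass. The lists were chosen with earlier results of these data known, so the 1 call is not a test of the pathway. The median log2 change of the lists ran from -0.10 (11 NFAT target genes) to 0.02 (11 calcium pumps, exchangers and uptake genes), beside -0.0015 over all tested genes.

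In the 6 lists without a call, the genes with the smallest p are given, all with an edgeR adjusted p of 0.728 or more. P2rx7, an ATP-gated channel, and Itpr3, the remaining IP3 receptor, had log2 values of 0.17 and -0.14. Smdt1, a subunit of the mitochondrial calcium uniporter, and Atp2a3, a pump of the endoplasmic reticulum, had 0.34 and -0.14. The calmodulin kinases Camk2g and Camk2a had 0.17 and -1.21, the second with only 12 to 77 counts. Fkbp1a, the FK506-binding protein, had -0.36. Nfat5, the family member regulated by tonicity, had -0.45, and Nfatc4 had 23 and 34 counts with DKK1 against 0 and 6 with PBS, too few for a reliable fold. Rcan2, a relative of Rcan1, had 0 and 0 counts with DKK1 against 12 and 10 with PBS, also too few for a reliable fold (edgeR adjusted p = 0.959). The NFAT targets Mmp9 and Egr2 had -0.22 and -0.17.

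The second comparison set precursor cells 2 against precursor cells 1 in the same model, over both treatments. No preparation was repeated, so the test compares these 2 preparations with the residual spread and says nothing of mice in general. Of the 10 members, 6 passed edgeR's test, 5 higher in precursor cells 2 (Itpr1, Nfatc2, Orai1, Stim1 and Ppp3ca) and 1 lower (Rcan1). Over all tested genes 33.9% passed, 17.9% higher and 15.9% lower, so a call is common in this comparison. These shares are not matched for level. In the run limited to genes with at least 1 CPM in 2 libraries, 6092 of 14018 passed. The median log2 difference was 0.21 over the members and -0.0034 over all tested genes. The libraries of the 2 preparations did not overlap for 8 of 10 members, against 69% of all tested genes.

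**Figure D4:**
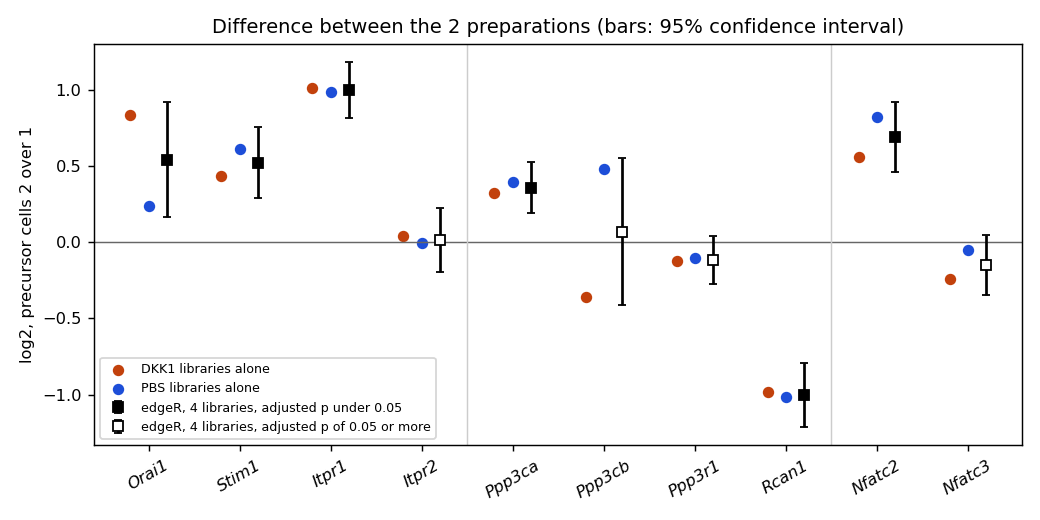
Log2 of precursor cells 2 over 1 for each member in the DKK1 libraries (orange), in the PBS libraries (blue) and in the edgeR fit of all 4 (squares, filled where the adjusted p is under 0.05; bars are 95% confidence intervals). Itpr1 at 1.00 and Rcan1 at -1.003 lie farthest from 0, with nearly the same value in both treatments, while the treatments differ most for Ppp3cb and Orai1.

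Itpr1 and Rcan1 moved by about the same factor in opposite directions. Itpr1 averaged 87.4 CPM in precursor cells 2 and 43.8 CPM in precursor cells 1, a 2.00-fold difference (log2 1.00, 95% CI 0.82 to 1.18, edgeR adjusted p = 0.000316). Its log2 difference was 1.01 in the DKK1 libraries and 0.99 in the PBS libraries. Itpr2 stayed level, at 41.2 CPM in precursor cells 2 and 40.8 CPM in precursor cells 1 (log2 0.02, 95% CI -0.19 to 0.22, edgeR adjusted p = 0.909). The ratio of Itpr1 to Itpr2 FPKM, which does not depend on the scaling of the libraries, was therefore 1.71 and 1.72 in precursor cells 2 (DKK1 and PBS) and 0.870 and 0.864 in precursor cells 1. On the authors' FPKM scale the preparations thus differed in which of these IP3 receptors was higher. In CPM, which is not divided by length, Itpr1 was the higher in both preparations. The order in precursor cells 1 therefore depends on the gene lengths used. Rcan1 averaged 28.4 CPM in precursor cells 2 and 56.9 CPM in precursor cells 1, 2.00-fold lower in precursor cells 2 (log2 -1.003, 95% CI -1.21 to -0.79, edgeR adjusted p = 0.000541), with -0.99 in the DKK1 and -1.02 in the PBS libraries.

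Nfatc2 was 1.61-fold higher in precursor cells 2, at 73.0 CPM there and 45.3 CPM in precursor cells 1 (log2 0.69, 95% CI 0.46 to 0.92, edgeR adjusted p = 0.00326). Nfatc3 was at 75.9 CPM in precursor cells 2 and 84.2 CPM in precursor cells 1 and did not pass (log2 -0.15, 95% CI -0.35 to 0.05, edgeR adjusted p = 0.205). The ratio of Nfatc2 to Nfatc3 FPKM was 1.07 and 1.07 in precursor cells 2 (DKK1 and PBS) and 0.612 and 0.581 in precursor cells 1. Both factors were thus nearly level in precursor cells 2, and Nfatc3 was the higher in precursor cells 1.

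Stim1 was 1.44-fold higher in precursor cells 2, at 46.0 CPM there and 32.0 CPM in precursor cells 1 (log2 0.52, 95% CI 0.29 to 0.75, edgeR adjusted p = 0.0089). Orai1 was 1.45-fold higher, at 44.2 CPM in precursor cells 2 and 30.3 CPM in precursor cells 1 (log2 0.54, 95% CI 0.16 to 0.92, edgeR adjusted p = 0.0419), but by 0.83 in the DKK1 libraries and by 0.24 in the PBS libraries. Ppp3ca was 1.28-fold higher, at 101 CPM in precursor cells 2 and 78.7 CPM in precursor cells 1 (log2 0.36, 95% CI 0.19 to 0.53, edgeR adjusted p = 0.0111). Ppp3r1, its B subunit partner, had a log2 difference of -0.12 (95% CI -0.27 to 0.04, edgeR adjusted p = 0.216). Ppp3cb had 0.07 in the fit (95% CI -0.42 to 0.55, edgeR adjusted p = 0.827), made of -0.36 in the DKK1 libraries and 0.48 in the PBS libraries.

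The calls of Itpr1, Nfatc2 and Rcan1 held in every alternative run, those that leave out a library included. Stim1 lost its call without the DKK1 or the PBS library of precursor cells 2 (edgeR adjusted p = 0.0831 and 0.0667), as did Ppp3ca (0.0844 and 0.0622), and Orai1 kept it only without PBS 2 among the 4 libraries left out in turn. With library size alone in place of TMM, the median of all genes was at -0.17, calls split into 34.4% higher and the rest lower against 52.9% higher with TMM, Ppp3ca and Orai1 lost their calls and Nfatc3 and Ppp3r1 were called lower (log2 -0.32 and -0.29).

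The rest of the pathway also differed between the preparations. Of the 89 tested genes, 27 were higher and 22 lower in precursor cells 2, or 55.1% called against 33.9% of all tested genes. The genes were chosen for their function and the share is a count, not a test of the lists. It is not matched for level, and 6092 of 14018 genes passed in the run limited to at least 1 CPM in 2 libraries. Upstream of calcium release, 8 of 14 were higher (median log2 0.23), with the ITAM adaptor Fcer1g at 0.76, the receptor gene Sirpb1a at 1.51, Plcg2, a phospholipase C gamma, at 0.57 and Vav1, a guanine nucleotide exchange factor, at 0.50. The 2 called lower were Nfam1 (log2 -0.34) and Plcg1 (log2 -0.54). Of 17 calcium channels and store regulators, 5 were higher, among them P2rx4 (log2 0.82), an ATP-gated channel, Saraf (log2 0.78), an inhibitor of store-operated entry, and the channels Trpv2 (log2 0.45) and Mcoln1 (log2 0.47). The 4 lower ones were Trpv4 (log2 -1.08), Ryr1 (log2 -2.47), Itpripl2 (log2 -0.41) and Orai2 (log2 -0.32), a relative of Orai1 that went the other way from it. Ryr1 had only 26 to 229 counts per library. Among 11 pumps, exchangers and uptake genes, 4 were higher and 3 lower with TMM, against 2 and 4 with upper-quartile scaling and 1 and 4 with library size alone. With TMM, the sodium-calcium exchanger Slc8a1 (log2 0.60) and the pumps Atp2b1 (log2 0.42), Atp2c1 (log2 0.24) and Atp2a3 (log2 0.20) were higher. The plasma membrane pump Atp2b4 (log2 -1.41), the endoplasmic reticulum pump Atp2a2 (log2 -0.39) and Mcu (log2 -0.34), the pore of the mitochondrial uniporter, were lower.

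Downstream, 3 of 13 calmodulin and CaM kinase genes were called, among them Camk2b higher (log2 1.89) and Calm3 lower (log2 -0.18). Camk2b had only 37 to 113 counts per library. Of 8 further calcineurin subunits, anchors and inhibitors, 4 were lower, as was Rcan1: Fkbp1a (log2 -1.13), the anchor Akap1 (log2 -0.96), the third catalytic subunit Ppp3cc (log2 -0.78) and the inhibitor Rcan3 (log2 -0.61). The calcineurin inhibitor Cabin1 was higher (log2 0.32), and the list's median was -0.58. Of 15 NFAT family and NFAT kinase genes, 6 were higher and 1 lower with TMM, against 4 and 1 with upper-quartile scaling and 3 and 3 with library size alone. Higher with TMM were, among others, Nfatc1 (log2 0.32), the NFAT kinase Dyrk2 (log2 0.72), the casein kinase Csnk1e (log2 0.60) and Lrrk2 (log2 1.01), a kinase known as a negative regulator of NFAT. Homer3, a scaffold that competes with calcineurin for NFAT, was lower (log2 -0.92). Of 11 NFAT target genes, 6 were lower in precursor cells 2, among them Egr2 (log2 -2.15), Egr3 (log2 -2.44), Mmp9 (log2 -0.87) and the integrin gene Itgb3 (log2 -0.36). Egr3 had only 25 to 372 counts per library. The osteoclast enzymes Ctsk (log2 2.27) and Acp5 (log2 0.42) were higher. Many of these genes answer to other regulators as well as to NFAT. With library size alone the 89 genes split into 17 higher and 27 lower; no called gene turned its sign there or with RLE or upper-quartile scaling. Calls were lost with library size alone for Nfatc1 (log2 0.15, edgeR adjusted p = 0.198), Cabin1, Atp2b1, Atp2c1, Atp2a3, Btk, Syk, Itpr3, Gsk3a and Dyrk1a, and with upper-quartile scaling for Nfatc1 (log2 0.27, edgeR adjusted p = 0.0514), Atp2c1, Atp2a3, Btk and Gsk3a.

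**Figure D5:**
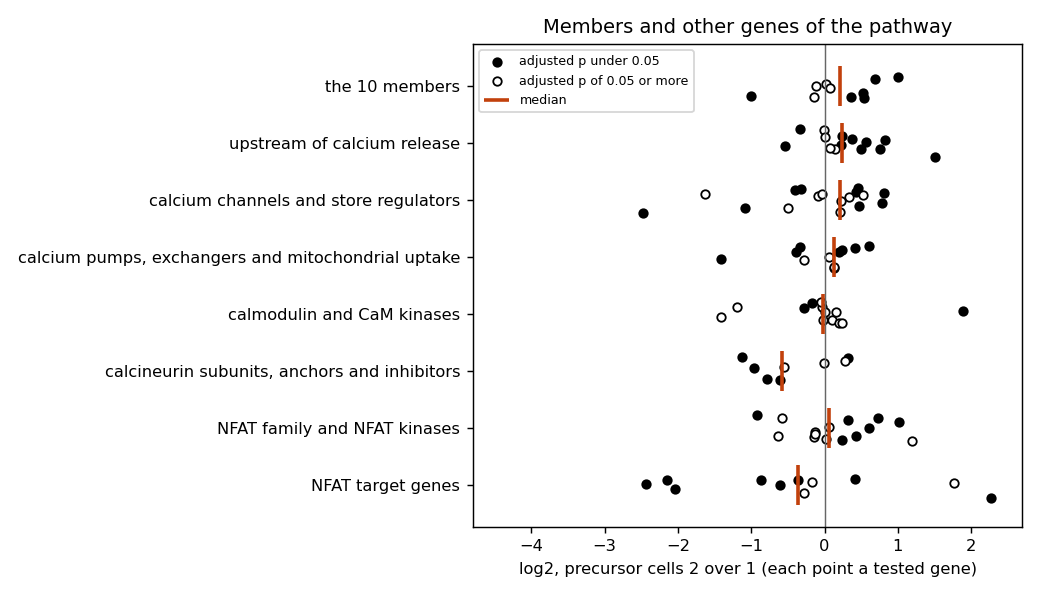
Log2 of precursor cells 2 over 1 for each tested gene of the members and of the 7 pathway lists, filled where edgeR's adjusted p is under 0.05, with the median of each row in orange. The medians lie between -0.58 (calcineurin subunits, anchors and inhibitors) and 0.23 (upstream of calcium release).

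Markers of other cell types were present, and some were called between the preparations, where 33.9% of all tested genes were. With DKK1, 0 in any of the 10 marker lists passed edgeR's test, against 0.0515% of all tested genes. The 12 monocyte, macrophage and precursor markers summed to 25020 and 24630 CPM in precursor cells 2 (DKK1 and PBS) and to 32900 and 33210 CPM in precursor cells 1, with 5 higher and 2 lower. Lyz2, which codes for lysozyme, was at 14685 and 14288 CPM in precursor cells 2 and at 24782 and 24909 CPM in precursor cells 1, and without it the other 11 summed to 10340 CPM in both libraries of precursor cells 2 and to 8120 and 8304 CPM in precursor cells 1. Csf1r was next by its mean over the 4 libraries. The monocyte marker Ly6c2, 1 of the 11 other than Lyz2, was at 1900 and 1985 CPM in precursor cells 2 and at 266 and 277 CPM in precursor cells 1. Another of the 11, the monocyte marker Cd14, went the other way. It was at 410 and 421 CPM in precursor cells 2 and at 1152 and 1199 CPM in precursor cells 1. Of 11 neutrophil markers, led by Ngp and S100a9, 10 were higher and 0 lower, with sums of 10030 and 9928 CPM in precursor cells 2 and of 5344 and 5465 CPM in precursor cells 1.

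Of 12 B and plasma cell markers, 4 were higher and 8 lower in precursor cells 2, with sums of 573 and 565 CPM there and of 140 and 221 CPM in precursor cells 1. Without Jchain the other 11 summed to 61.5 and 60.5 CPM in precursor cells 2 and to 138 and 218 CPM in precursor cells 1. The plasma cell gene Jchain was at 512 and 504 CPM in precursor cells 2 and at 2.27 and 2.99 CPM in precursor cells 1, and the B cell gene Cd79a at 10.5 and 13.0 CPM in precursor cells 2 and at 31.9 and 49.9 CPM in precursor cells 1. The dendritic cell list (led by Bst2 and Ccr7) summed to 1016 and 955 CPM in precursor cells 2 and to 428 and 382 CPM in precursor cells 1, with 3 higher and 3 lower of 8. Bst2 made up nearly all of it, at 992 and 933 CPM in precursor cells 2 and 404 and 355 CPM in precursor cells 1, and the other 7 summed to between 22.01 and 27.14 CPM in the 4 libraries. The megakaryocyte and platelet list (Pf4 and Ppbp) summed to 1047 and 1042 CPM in precursor cells 2 and to 1579 and 1669 CPM in precursor cells 1, with 3 lower of 7. The other 5 lists summed to less than 170 CPM in every library. Of these, 5 of 7 tested erythroid markers (led by Hba-a1 and Hbb-bs), 3 of 6 endothelial (Kdr and Pecam1), 4 of 8 mast cell and basophil (Hdc and Kit), 1 of 8 stromal and osteoblast (Col1a1 and Col1a2) and 1 of 10 T and NK cell markers (Cd4 and Nkg7) were higher, and 0, 0, 1, 1 and 1 lower. The T cell genes Cd3e and Trac were under 1 CPM in all libraries, while Cd4 was at 10.3 to 26.5 CPM and Nkg7 at 6.71 to 9.65 CPM. The mast cell protease genes Cma1 and Tpsb2 had 0 counts. The part of these cells in the members' differences was not tested.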

How the data were processed

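RNA of 4 libraries, DKK1 and PBS from precursor cells 1 and 2, was compared. The deposited counts are whole numbers for each gene. Per the submitters' processing notes, fastp, HISAT2 and mm10 were used, while for the counting program, annotation and strand the sources used here give nothing. The authors' deposited tables, 1 per pair, give FPKM (counts scaled to gene length and library size), a log2 ratio of DKK1 over PBS, and p-values and FDR from a test that is not stated. Their counts equal the count table (0 differing).

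Genes passing edgeR's filterByExpr (minimum count 10) were fitted by quasi-likelihood in edgeR 4.0.16 (R 4.3.3; TMM scaling, legacy off). The model had treatment and precursor cells as terms, and 1 residual degree of freedom. The test also borrows spread from other genes, which gave it 5.69 degrees of freedom for the members. The confidence intervals of the fit rest on this moderated spread. P-values are two-sided, Benjamini-Hochberg adjusted over all 17462 tested genes, threshold 0.05. Per the labels the cells came from 2 mice, and the number in a sample's title was taken as the mouse. As a check of the pairing, libraries with the same number deviated together from the group means (correlation 0.726 over tested genes), and the first principal component, with 76.1% of variance, parted the numbers. Within-pair differences are log2 CPM with a prior count of 2; counting intervals are exact binomial, 95%, and cover counting error only. Alternatives were RLE and upper-quartile scaling, library size alone, no filter, at least 1 CPM in 2 libraries, no pairing, DESeq2 1.42.0, limma-voom (limma 3.58.1), legacy quasi-likelihood and each library left out. Library size alone and the sum with Wdr92 were chosen after seeing the data. The fit was also run on simulated counts in which far fewer genes differed between preparations than here. Its behaviour under the differences found here was therefore not tested.

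Positions and exon overlaps are from GENCODE M21 (GRCm38, the same build as mm10), with near-identical transcripts sought by BLAST 2.17.0 (alignments of 100 bases or more at 95% identity, covering 50% of the shorter sequence). Nfatc3, Itpr1 and Orai1 overlap or resemble models holding few counts (own share at least 99.1%). The RefSeq promoter table (GRCm38.p6) held windows for 8 of 10 members. Members and lists were chosen with earlier results of these data known. All members are named, and of each list up to 4 called genes per direction by smallest p, or, where none was called, the 2 with the smallest p. For each marker list the 2 most abundant genes by mean CPM are named. Ly6c2, Cd14, Cd3e, Trac and the genes whose calls other scalings lose were chosen after their values were seen. One gene that the rule names is not reported here.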

Additional observations from a re-analysis of the deposited data

Results flagged for a closer look

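For 4 members, the change with DKK1 went in opposite directions in the 2 preparations while the counting interval of each pair excluded 0, which held for 10.2% of all tested genes and 12.8% of those in the members' CPM range. These intervals hold counting error only. The within-pair log2 differences of DKK1 over PBS in precursor cells 1 and 2 were 0.156 and -0.686 for Ppp3cb, -0.193 and 0.405 for Orai1, 0.175 and -0.0869 for Nfatc2 and 0.101 and -0.0891 for Nfatc3. The difference between the preparations was not tested, since each holds 1 pair and the disagreement of the pairs is the only residual that the model has for a gene.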

How the results depend on the processing

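Without the replicate block, which ignores the pairing, 0 genes were called with DKK1 (116 at an unadjusted p under 0.05), against 9 with it. Other counts with DKK1 were 15 with at least 1 CPM in 2 libraries, 46 with DESeq2, 5 with upper-quartile scaling, 3 with library size alone, 3 with the legacy quasi-likelihood, 2 with limma-voom and 0 without a filter (911 unadjusted), and 10 with RLE scaling. Leaving out each library in turn, with no block, gave 0 to 0. The members called with DKK1 were 0 in every alternative run.

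Between the preparations, 3509 genes were called without a filter and 3194 to 4574 when a library was left out, against 5913, and 3 to 5 members were called, against 6. Without DKK1 replicate 2 it was 3 members and 3194 genes, and without PBS replicate 2 it was 3346 genes. The call of Orai1 was also lost with upper-quartile scaling (edgeR adjusted p = 0.057), the legacy form (0.0602), no filter (0.172) and library size alone (0.133). The uncalled log2 difference of Itpr2 turned to -0.15 with library size alone, -0.011 without a filter and -0.035 with upper-quartile scaling, and that of Ppp3cb to -0.10 with library size alone. Leaving out a library gave -0.043 to 0.065 for Itpr2 and -0.28 to 0.39 for Ppp3cb.

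With DKK1, leaving out a library, with no block, gave log2 changes of -0.50 to 0.66 for Itpr1, -0.34 to 0.48 for Nfatc2, -0.12 to 0.13 for Nfatc3, -0.31 to 0.52 for Orai1, -0.12 to 0.28 for Ppp3ca, -0.49 to -0.010 for Ppp3cb, 0.065 to 0.096 for Itpr2, -0.091 to 0.043 for Ppp3r1, -0.60 to 0.58 for Rcan1 and -0.18 to 0.44 for Stim1. By construction these fits set both preparations in one treatment against 1 in the other, and the lone library is assumed to vary like the others.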
